A study of Mus musculus with 4 samples.

Results

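Neutrophils of mouse mammary tumours were described from single-cell RNA counts. A cell was taken as a neutrophil when it held at least 2 unique molecular identifiers (UMIs, each 1 counted transcript) of Csf3r, Cxcr2 and Retnlg together and at least 1 UMI of S100a8 and S100a9 together. It also had to hold no UMI of C1qa, C1qb, Adgre1, Cd3e or Cd79a, genes of macrophages, T cells and B cells. The rule found 549 neutrophils among 28200 kept cells, those with at least 200 detected genes, 500 UMIs and at most 10% mitochondrial UMIs. The neutrophils were thus chosen by their measured UMIs of these genes. The 5 genes that they had to hold, and any contrast of neutrophils with other cells, are therefore given as descriptions.

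The study set tumours given checkpoint blockade beside untreated ones, in mice bearing triple-negative mammary cancers. T11-Apobec tumour cells were injected orthotopically into the mammary gland of female Balbc mice and KPB25Luv tumour cells in that of female FVB/NJ mice, so model and strain cannot be told apart. The treated mice received anti-PD1 at 10 mg/kg and anti-CTLA4 at 100 µg biweekly, starting at a tumour diameter of 5 mm, and their tumours were collected after 7 days of therapy, whereas the untreated mice received none and their day of collection is not given in the sources used here. Each of the 4 groups was 1 library of enzymatically dissociated whole tumour, without sorting stated, and whether tumours were pooled is not stated. With 1 library per group no difference has a replicate check and no test was made. Intervals are exact 95% intervals that cover counting error only, not the spread between tumours.

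Neutrophils are short-lived granulocytes made in the bone marrow under the cytokine G-CSF, whose receptor is encoded by Csf3r, and leave the marrow and enter tissue with the help of the chemokine receptor Cxcr2. S100a8 and S100a9 encode the subunits of calprotectin, the most abundant protein pair of the neutrophil cytosol, and Retnlg a secreted resistin-like protein of circulating neutrophils. Neutrophils hold little RNA. In tumours they can secrete chemokines, present antigen or dampen T cells, and interferons are known to alter their gene expression.

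The libraries held 30369476 to 98475778 UMIs in 5509 to 11304 barcodes. Neutrophil UMIs came to 32762 with treatment and 102250 without in T11-Apobec, and to 23102 and 585004 in KPB25Luv. Their median was 938.5 and 702 UMIs per cell in treated and untreated T11-Apobec, and 911.5 and 985 in KPB25Luv, against 3866 to 9704 for all kept cells. A few large cells weighed on the sums. Of the neutrophils, 2, 4, 1 and 17 in the same order held over 3000 UMIs, and these held 35.6%, 42.7%, 14.4% and 26.2% of the neutrophil UMIs. The rule asked for the same raw UMIs whatever a cell's total. Thinned to 500 UMIs each, the 2 large cells of treated T11-Apobec held 18 and 0 calprotectin UMIs. The 4 of untreated T11-Apobec held 3, 0, 0 and 16, and that of treated KPB25Luv held 9. Whether the large cells are neutrophils was not tested. Values without them are given for some genes and lists. Between libraries 392 kept barcodes were shared, 14 neutrophil barcodes were also kept in another library, and 0 were neutrophils in both.

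The rule genes differed between the models. Retnlg was detected in 77.3% of treated and 82.5% of untreated T11-Apobec neutrophils, but in 31.8% of treated and 22.6% of untreated KPB25Luv neutrophils. Cxcr2 was detected in 68.2% and 55% of T11-Apobec and in 90.9% and 90.1% of KPB25Luv neutrophils. S100a8 stood at 30828 CPM (a gene's UMIs scaled to 1000000 neutrophil UMIs, the level used throughout) in treated T11-Apobec, 57780 in untreated T11-Apobec, 17098 in treated KPB25Luv and 21111 in untreated KPB25Luv. Of Retnlg and Cxcr2, Retnlg was thus the more frequent in T11-Apobec and Cxcr2 in KPB25Luv. Csf3r was detected in 81.8% of treated and 41.2% of untreated T11-Apobec neutrophils. In KPB25Luv it was detected in 77.3% and 79.5%. The 5 rule genes together stood at 78017, 116460, 33980 and 50229 CPM in treated and untreated T11-Apobec and treated and untreated KPB25Luv neutrophils. Without cells over 3000 UMIs these sums were higher, at 113444, 198658, 37058 and 65136 CPM. Cells just inside the rule, with 2 UMIs of the 3 receptor and resistin-like genes, numbered 4, 17, 5 and 113 in treated and untreated T11-Apobec and treated and untreated KPB25Luv, with a median of 71.5, 46, 7 and 23 calprotectin UMIs. Cells just outside it, with 1 such UMI, numbered 16, 46, 12 and 149, with a median of 43.5, 63.5, 8.5 and 13.

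**Figure D1:**
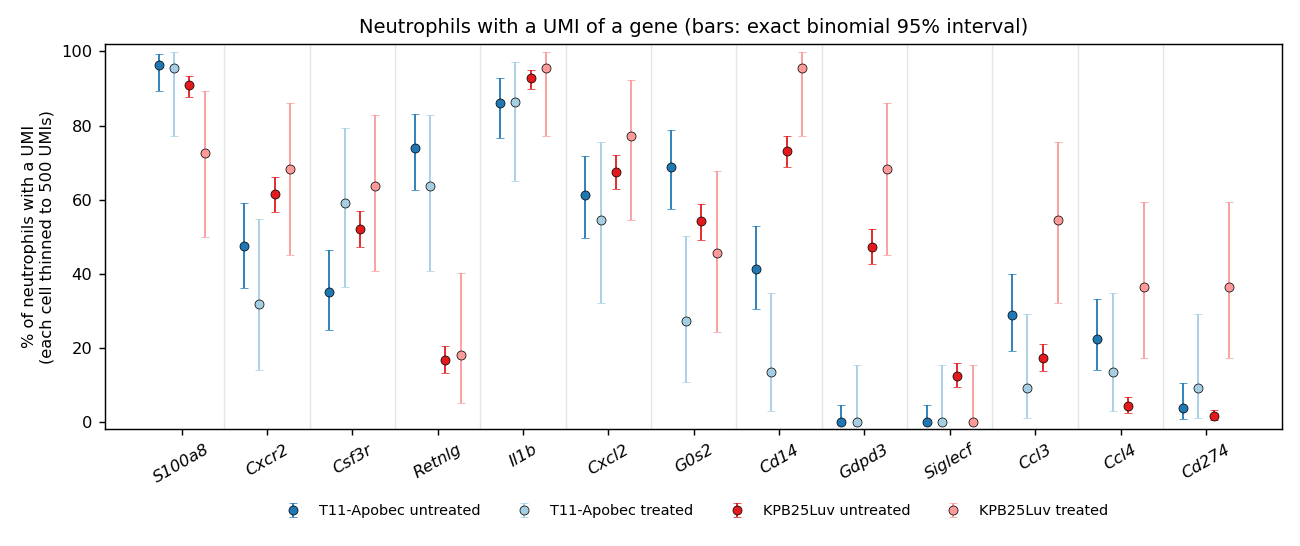
Share of neutrophils with at least 1 UMI of each gene (vertical axis, percent, each cell thinned to 500 UMIs) in the 4 libraries, with exact binomial 95% intervals. Retnlg was frequent in both T11-Apobec libraries and infrequent in both KPB25Luv libraries, while Siglecf was seen in untreated KPB25Luv and at 0 in the other 3 libraries.

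Further genes known from neutrophils accompanied the rule genes. At least 10 UMIs in the neutrophils of each library were found for 329 genes, and 241 remained after gene classes such as ribosomal and mitochondrial genes were left out. Of these, 118 were at least 2-fold above all other cells in all 4 libraries. The 20 with the highest enrichment held the 5 rule genes and 15 others. Those others included Mrgpra2b, a Mas-related receptor, which stood 8.01 to 10.45 log2 units above other cells over the 4 libraries. Hdc, the enzyme that makes histamine, stood 7.08 to 9.40 above them, G0s2, an inhibitor of lipolysis, 7.06 to 9.53, Il1b, an inflammatory cytokine, 6.43 to 8.77, and the activating receptor Trem1 5.91 to 8.60. Genes of marrow precursors were scarce. Of the primary granule genes, Mpo and Elane had 0 UMIs in the neutrophils of all 4 libraries, and Prtn3 had 7 in untreated KPB25Luv and 0 in the other 3. The list of 9 genes had 10, 9, 0 and 85 UMIs in treated and untreated T11-Apobec and treated and untreated KPB25Luv, of which 10, 9, 0 and 56 were Ctsc, a protease gene that T cells held too. Ly6g, which encodes the surface marker of mouse neutrophils, had 0, 12, 0 and 24 UMIs. In untreated T11-Apobec and untreated KPB25Luv this was 117 and 41 CPM, where 3 UMIs would be 29.3 and 5.13 CPM. This classical marker was thus found there, but in only 6.25% and 3.76% of cells.

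Markers of other cell types were not absent. The summed monocyte markers, mostly Plac8, stood above their level in other cells in both treated libraries. The 12 macrophage markers summed to 1557, 919, 173 and 985 CPM in treated and untreated T11-Apobec and treated and untreated KPB25Luv neutrophils, against 424 to 5133 CPM in the other cells, and 3 to 9 of the 12 had a UMI. The 10 monocyte markers summed to 5769, 900, 1905 and 822 CPM, against 1438, 1356, 939 and 941 CPM in the other cells. Without cells over 3000 UMIs the sums in treated T11-Apobec and treated KPB25Luv neutrophils were 1422 and 1365 CPM, the former no longer above the other cells. Plac8 gave 159 of the 189 monocyte-marker UMIs in treated T11-Apobec neutrophils and 25 of 44 in treated KPB25Luv. Ccr2, F13a1, Chil3 and Vcan had 0 UMIs in the neutrophils of both treated libraries. The 12 T cell markers summed to 1404 and 264 CPM in treated and untreated T11-Apobec neutrophils, and to 2814 and 899 CPM in KPB25Luv. In the other cells they summed to 2902, 173, 7089 and 759 CPM in the same order. In treated KPB25Luv 59.1% of neutrophils held a UMI of these markers, and the most in 1 cell was 40. Without cells over 3000 UMIs the sums in treated T11-Apobec and treated KPB25Luv neutrophils were 1895 and 1264 CPM. Tumour and mesenchymal markers were highest in 1 library each. The 10 epithelial markers reached 2176 CPM in untreated KPB25Luv and the 10 mesenchymal markers 1281 CPM in untreated T11-Apobec neutrophils. The other cells of these libraries held more, at 5369 and 2916 CPM. Without cells over 3000 UMIs the neutrophil values were 935 and 325 CPM. In untreated KPB25Luv 1 neutrophil held 459 of the 1273 epithelial UMIs. Calprotectin transcripts were also found outside the neutrophils. In untreated KPB25Luv 29.5% of T cells held a UMI of S100a8, or 5.15% after thinning each cell to 500 UMIs, against 0.701% to 1.69% unthinned in the other 3 libraries. How much of each of these values comes from free RNA or from other cells in the same droplet was not tested.

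Neutrophils were scarcer in both treated libraries. They made up 0.359% (0.225 to 0.543%) of kept cells in treated and 0.775% (0.615 to 0.964%) in untreated T11-Apobec, 22 of 6131 against 80 of 10321 cells. In KPB25Luv they made up 0.417% (0.262 to 0.631%) with treatment and 6.56% (5.97 to 7.19%) without, 22 of 5273 against 425 of 6475 cells. The treated share was lower by 2.16-fold (1.33 to 3.64) in T11-Apobec and by 15.7-fold (10.3 to 25.4) in KPB25Luv. Among untreated tumours the KPB25Luv share was 8.47-fold higher (6.65 to 10.9). These values moved with the denominator. Among immune cells the T11-Apobec treated share was 4.94-fold lower, the KPB25Luv treated share 20.3-fold lower, and the untreated KPB25Luv share 4.29-fold above T11-Apobec. Per T cell the last was 1.83-fold. The share moved with the other cells of the tumour. T cells outnumbered neutrophils by more in the treated libraries, with 0.906 neutrophils per 100 T cells in treated and 22.5 in untreated T11-Apobec, and 0.55 against 41.3 in KPB25Luv. Macrophages were scarce with treatment too. Set against macrophages, neutrophils were not scarcer: there were 3.03 per 100 macrophages in treated and 2.47 in untreated T11-Apobec, a log2 ratio of 0.30 (-0.46 to 0.99), and 71 against 24.1 in KPB25Luv, a log2 ratio of 1.56 (0.87 to 2.18) that rests on 31 treated macrophages.

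**Figure D2:**
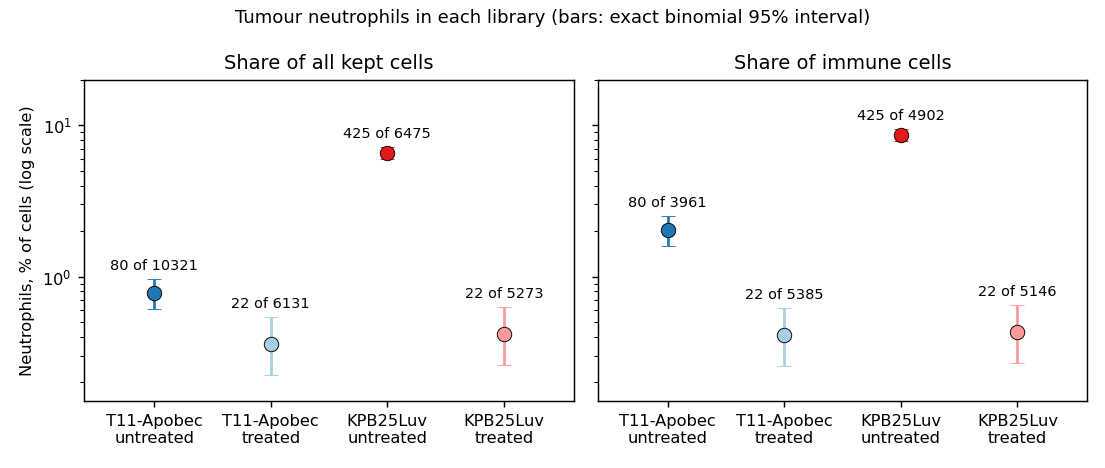
Neutrophils as a percentage of all kept cells (left) and of immune cells (right) in the 4 libraries, on a log scale, with exact binomial 95% intervals and the cell numbers above each point. The untreated KPB25Luv library stands above the other 3 in both panels.

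In KPB25Luv, neutrophils of the treated library carried far higher levels of interferon-response and antigen-presentation genes. Of 3588 genes with at least 20 UMIs in both libraries together, 516 were at least 2-fold higher with treatment, a percent called of 14.4, and 1017 at least 2-fold lower, a percent called of 28.3. The lower count holds many genes with 0 UMIs among the few treated cells. With genes at 0 taken at the bound that 3 UMIs give, 230 were lower, a percent called of 6.41. With the further demand that at least 5 UMIs be expected in each library, 662 genes could be compared, and 64 were higher and 136 lower, a percent called of 9.67 and 20.5. All fold values compare 22 treated with 425 untreated cells, and at this depth counting error alone can carry a gene past 2-fold. Of the treated cells 45.5% held under 10 calprotectin UMIs, against 19.8% of the untreated, with a median of 13 against 32.

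Interferon-gamma is a T cell and NK cell cytokine that induces guanylate-binding proteins, immunity-related GTPases and antigen presentation. Summed over all 30 genes of this list, with no filter, the level was 30171 CPM (27972 to 32496) in treated and 4979 CPM (4800 to 5164) in untreated KPB25Luv neutrophils, a log2 ratio of 2.60 (2.48 to 2.72). In T cells of the same libraries the sum was 8028 and 4107 CPM. Of the 30 members, 17 had at least 20 UMIs, and 15 of these were at least 2-fold higher and 0 lower. With at least 5 UMIs expected in each library, 3 of 4 were higher. Among cells with at least 10 calprotectin UMIs the list's median log2 ratio was 2.17 in place of 3.14. The guanylate-binding protein gene Gbp2 had 89 UMIs in 15 of 22 treated cells and 67 UMIs in 30 of 425 untreated cells. This is 3852 against 115 CPM, a log2 ratio of 5.07 (4.60 to 5.55). Ifi47, an interferon-inducible GTPase, stood at 2770 against 27.4 CPM, a log2 ratio of 6.63 (5.85 to 7.55), and a related GTPase, Igtp, at 909 against 59.8 CPM. Cxcl10, a chemokine that draws T cells, stood at 1125 against 32.5 CPM, a log2 ratio of 5.10 (4.21 to 6.05). Its treated UMIs came from 9 of 22 cells, 34.6% of them from 1 cell.

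The type I interferon list, genes of antiviral defence, was higher in the same cells. Its 23 genes summed to 14717 CPM (13194 to 16368) in treated and 2815 CPM (2681 to 2955) in untreated KPB25Luv neutrophils, a log2 ratio of 2.39 (2.21 to 2.56), against 1845 and 1225 CPM in T cells. Of 12 members with at least 20 UMIs, 11 were at least 2-fold higher and 0 lower, and 3 of 4 were higher where at least 5 UMIs were expected in each library. Isg15, a ubiquitin-like modifier, was in 16 of 22 treated and 74 of 425 untreated cells, at 4026 against 248 CPM, a log2 ratio of 4.02 (3.63 to 4.41). Rtp4 stood at 1688 against 123 CPM, and Ifitm3, an antiviral membrane protein gene, at 4112 against 899 CPM.

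MHC class I genes, which serve antigen display to CD8+ T cells, were higher too. The 15 genes summed to 40170 CPM (37626 to 42840) in treated and 8607 CPM (8371 to 8848) in untreated KPB25Luv neutrophils, a log2 ratio of 2.22 (2.12 to 2.32). All 12 members with at least 20 UMIs were at least 2-fold higher, and so were all 4 with 5 UMIs expected. B2m, the light chain, stood at 14414 against 2858 CPM, and H2-D1 and H2-K1, heavy chains, at 16449 against 3938 and 3982 against 841 CPM. Heavy-chain genes have near-identical relatives, so how counts were shared out among them is uncertain. MHC class II genes, which serve display to CD4+ T cells, overlapped in their intervals: they summed to 390 CPM (178 to 740) with and 538 CPM (481 to 601) without treatment.

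Cd274 encodes PD-L1, the ligand of the receptor that anti-PD1 blocks. It had 21 UMIs in 9 of 22 treated and 22 UMIs in 17 of 425 untreated KPB25Luv neutrophils, 909 against 37.6 CPM, a log2 ratio of 4.60 (3.66 to 5.53). In T11-Apobec it had 2 UMIs in 22 treated and 3 in 80 untreated cells. Pdcd1lg2, which encodes the other ligand, PD-L2, had 0 UMIs in both T11-Apobec libraries and in treated KPB25Luv, and 6 in untreated KPB25Luv.

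**Figure D3:**
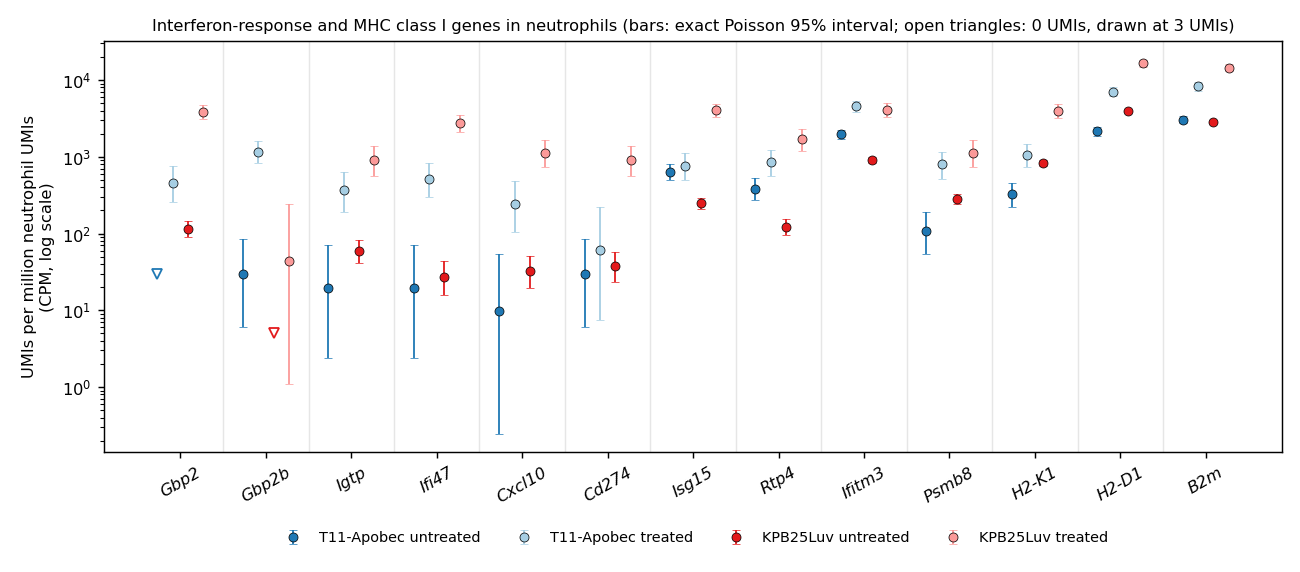
Level of interferon-response and MHC class I genes in the neutrophils of the 4 libraries (vertical axis, CPM on a log scale) with exact Poisson 95% intervals. Treated points lie above untreated points in both models, but the intervals of Isg15 and Cd274 overlap in T11-Apobec, and Gbp2b in KPB25Luv rests on 1 treated UMI; open triangles mark 0 UMIs, drawn at the level of 3 UMIs.

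Promoter sequence was set beside these genes. Interferon-regulated factors bind the interferon-stimulated response element, whose core was searched as GAAA, any 2 bases, then GAAA, on both strands, in the 250 bases upstream of the RefSeq start of each gene (GRCm38.p6). It was found in 821 of 27025 genes, 3.04%. Of the 10 highest genes of treated KPB25Luv neutrophils, ranked by the interval end nearest 0, 8 had a promoter in the table and 4 of those held the core, in Gbp2, Cxcl10, Isg15 and Igtp. Of the 10 lowest, 10 had a promoter and 0 held it. The core of the gamma-activated site, TTC, any 3 bases, then GAA, which reads alike on both strands, was in 7.18% of all genes and in 1 of the 8, Igtp. These matches describe letters only and show no binding. Shown are 3 of these promoters and that of Gbp2b, the second of the 10 highest genes of treated T11-Apobec neutrophils, 5′ to 3′ on the gene's strand and ending at the base before the gene start, with the core in capitals. Isg15 is shown at chr4:156200819-156201068 (minus strand), Cxcl10 at chr5:92348890-92349139 (minus), Igtp at chr11:58199306-58199555 (plus) and Gbp2b at chr3:142594597-142594846 (plus).
Isg15: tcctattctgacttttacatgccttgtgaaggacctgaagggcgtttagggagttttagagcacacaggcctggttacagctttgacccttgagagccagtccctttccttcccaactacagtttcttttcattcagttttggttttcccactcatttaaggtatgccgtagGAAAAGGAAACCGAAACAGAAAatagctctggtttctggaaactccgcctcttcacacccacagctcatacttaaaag
Cxcl10: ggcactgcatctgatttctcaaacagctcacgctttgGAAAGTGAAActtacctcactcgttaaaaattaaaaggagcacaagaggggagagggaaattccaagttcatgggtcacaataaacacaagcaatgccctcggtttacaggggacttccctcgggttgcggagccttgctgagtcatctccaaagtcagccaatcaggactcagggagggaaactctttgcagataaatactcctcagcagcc
Igtp: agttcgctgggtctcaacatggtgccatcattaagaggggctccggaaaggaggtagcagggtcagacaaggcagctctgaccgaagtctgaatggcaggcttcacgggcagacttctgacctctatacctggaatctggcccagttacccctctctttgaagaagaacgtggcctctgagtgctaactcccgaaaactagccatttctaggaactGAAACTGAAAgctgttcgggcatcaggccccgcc
Gbp2b: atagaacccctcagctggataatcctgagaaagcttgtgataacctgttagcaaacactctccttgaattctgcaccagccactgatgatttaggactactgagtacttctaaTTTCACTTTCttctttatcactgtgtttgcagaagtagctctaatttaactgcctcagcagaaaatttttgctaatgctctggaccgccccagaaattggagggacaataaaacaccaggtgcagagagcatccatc
Isg15 held 3 overlapping matches, the first starting 78 bases before the gene start. The single matches of Cxcl10, Igtp and Gbp2b started 213, 34 and 137 bases before it.

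Genes of the NF-kB pathway, which inflammatory signals switch on and which induces its own inhibitors, were also higher in treated KPB25Luv neutrophils. Of 16 members with at least 20 UMIs, 12 were at least 2-fold higher and 1, with 0 treated UMIs, lower, and 2 of 4 were higher with 5 UMIs expected. Summed over all 20 genes the level was 31686 CPM (29431 to 34067) against 16629 CPM (16300 to 16963). The inhibitor Nfkbia was in 17 of 22 treated and 180 of 425 untreated cells, at 7662 against 985 CPM, a log2 ratio of 2.96 (2.71 to 3.21). Sod2, a mitochondrial superoxide dismutase, stood at 822 against 113 CPM and Tnf, the cytokine, at 476 against 30.8 CPM. Marcksl1, an actin-binding protein gene, stood at 8571 against 1014 CPM, with 32.3% of the treated UMIs in 1 cell. The survival list had 10 of 16 tested members at least 2-fold higher and 1 lower, among them Nlrp3, the inflammasome sensor, at 606 against 99.1 CPM. Where 5 UMIs were expected, 1 of 3 was higher.

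The genes that stood lower in treated KPB25Luv neutrophils came from several groups. Cebpb, a transcription factor of granulocyte production, was in 6 of 22 treated and 338 of 425 untreated cells, at 346 against 1501 CPM, a log2 ratio of -2.03 (-3.33 to -1.13). The chemokine gene Ccl6 stood at 606 against 2294 CPM, the lysozyme gene Lyz2 at 433 against 1691 CPM and the peroxide-reducing enzyme gene Gpx1 at 303 against 1162 CPM. Cox6a1, a respiratory chain subunit, had 0 treated UMIs against 352 untreated, at least 4.63-fold lower. Cd300c2, a surface receptor, had 0 against 203, at least 2.67-fold lower. Igfbp6 had 0 against 259, at least 3.41-fold lower. T cells of the treated library had lower levels of several of these genes too. Igfbp6 stood there at 2.52 against 351 CPM, Cebpb at 7.74 against 165, Ccl6 at 4.3 against 75.7, Lyz2 at 77.9 against 622 and Cd300c2 at 1.74 against 10.9 CPM. Gpx1 and Cox6a1 stood closer in T cells, at 278 against 346 and 543 against 656 CPM. The part of free RNA in these differences was not tested. Jun stood at 43.3 against 509 CPM. Over the whole dissociation stress list, Jun included, 5 of 21 genes were at least 2-fold higher and 4 lower, 2 of these 4 with 0 treated UMIs.

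In T11-Apobec the treated neutrophils also carried higher interferon-gamma and MHC class I genes. Of 849 genes with at least 20 UMIs, 111 were at least 2-fold higher with treatment and 135 lower, a percent called of 13.1 and 15.9. The interferon-gamma list summed to 15384 CPM (14070 to 16787) in treated and 3980 CPM (3603 to 4387) in untreated cells, a log2 ratio of 1.95 (1.76 to 2.14), against 10528 and 8194 CPM in T cells. All 6 members with at least 20 UMIs were at least 2-fold higher. Gbp2b, a guanylate-binding protein gene, had 38 UMIs in 10 of 22 treated and 3 UMIs in 3 of 80 untreated cells, 1160 against 29.3 CPM, a log2 ratio of 5.10 (3.65 to 7.65). Gbp2 had 15 UMIs against 0, 458 CPM in treated cells, at least 15.6-fold higher. The immunoproteasome gene Psmb8 stood at 794 against 108 CPM. MHC class I genes summed to 19260 CPM (17786 to 20823) against 5985 CPM (5520 to 6479), a log2 ratio of 1.69 (1.52 to 1.85), and all 5 members with at least 20 UMIs were at least 2-fold higher. H2-D1 stood at 7081 against 2152 CPM and B2m at 8241 against 3042 CPM. The type I interferon list had 5 of 7 tested members at least 2-fold higher and 0 lower. Without cells over 3000 UMIs the median log2 ratio of this list was 0.82 in place of 1.17, below the 2-fold line. Its sum was 11599 against 5115 CPM, but Isg15 stood at 763 CPM (494 to 1126) against 636 CPM (491 to 810), so its intervals overlapped.

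Several other high genes of treated T11-Apobec neutrophils had most of their UMIs in 1 cell, and some stayed high without the large cells. Plac8 stood at 4853 against 68.5 CPM, a log2 ratio of 6.05 that was 3.55 without cells over 3000 UMIs, and 52.8% of its treated UMIs lay in 1 cell. The MHC class II genes H2-Aa, H2-Ab1 and H2-Eb1 had 92.9%, 71.7% and 88.9% of their treated UMIs in 1 cell, but H2-Ab1 had UMIs in 7 of 22 treated cells. Their log2 ratios were 3.23, 3.86 and 3.63, and 1.11, 4.93 and 2.69 without the large cells. The latter rest on few UMIs, so the 0.5 count added to each library weighs on them. All 11 untreated UMIs of H2-Ab1 lay in 1 cell. Lyz2 stood at 6196 against 1095 CPM, a log2 ratio of 2.50, and without the large cells at -0.44. Ctss, a protease gene of antigen processing, stood at 3.09 with and 0.82 without them on the same scale, Psap, a lysosomal protein gene, at 2.26 and 0.24, and Gngt2 at 2.68 and 0.54. The monocyte markers were highest in this library, at 5769 CPM, but Plac8 is among them and alone made up 4853 CPM. Their sum is thus no separate measure for Plac8. The part of monocyte transcripts in these values was not tested. Gbp2b and Psmb8 were as high without the large cells, with log2 ratios of 4.98 and 3.14.

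Of 7 tested chemokine and cytokine genes, 2, Ccl3 and Ccl4, were at least 2-fold lower in treated T11-Apobec neutrophils and 0 higher, where 15.9% of all tested genes were lower. Ccl4, a chemokine that draws monocytes and T cells, had 15 UMIs in 5 of 22 treated and 261 UMIs in 21 of 80 untreated cells, 458 against 2553 CPM, a log2 ratio of -2.43 (-3.34 to -1.73). Its neighbour Ccl3, a chemokine of the same family, stood at 305 against 1839 CPM, a log2 ratio of -2.52 (-3.67 to -1.68). G0s2 stood at 1068 against 4372 CPM, a log2 ratio of -2.01 (-2.57 to -1.54). The hypoxia-inducible gene Hilpda had 1 UMI against 31. Lgals1, S100a4, S100a10, Cd63, Sparc, Lmna and Cdkn2a were also among the 10 lowest. For these 7 genes 34% to 65% of the untreated UMIs lay in 1 cell, and each stood lower in neutrophils than over all cells of the untreated library. Without the large cells S100a4 kept a log2 ratio of -3.48, while Lgals1 stood at -1.43 and Cdkn2a at -0.64. Both genes of the chemokine pair were higher in treated KPB25Luv neutrophils, Ccl4 at 3333 against 168 CPM and Ccl3 at 3852 against 1021 CPM, with log2 ratios of 4.32 (3.86 to 4.76) and 1.92 (1.58 to 2.24). Whether the 2 models differ beyond the spread between tumours was not tested.

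**Figure D4:**
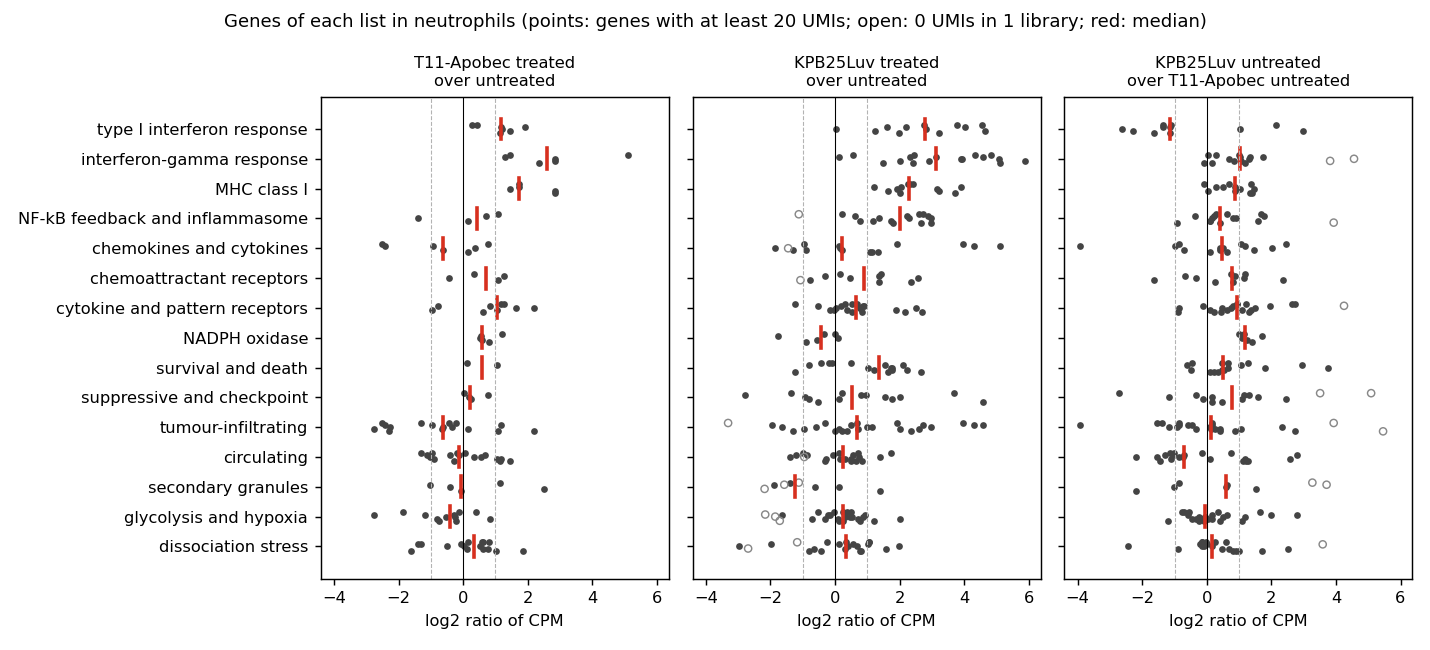
log2 ratio of the level in neutrophils for the genes of 15 lists in the 3 comparisons, with each point 1 gene with at least 20 UMIs, open circles for genes with 0 UMIs in 1 library, and the list's median in red. The interferon-gamma and MHC class I medians lie right of 0 in all 3 panels, and the type I interferon median lies right of 0 in both treatment panels and left of 0 between the models.

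Between the untreated tumours, KPB25Luv neutrophils had more transcripts of receptors and of the oxidative burst, and T11-Apobec neutrophils more Ccl4. This comparison shares an untreated library with the treatment comparison of each model, so its values are not independent of theirs. Of 3857 genes with at least 20 UMIs, 922 were at least 2-fold higher in KPB25Luv and 334 lower, a percent called of 23.9 and 8.66. With genes at 0 at their bound, 816 were higher, a percent called of 21.2.

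The phagocyte NADPH oxidase makes superoxide to kill microbes. All 6 tested genes of its 8 were at least 2-fold higher in untreated KPB25Luv neutrophils, and the list summed to 5661 CPM (5470 to 5858) against 2406 CPM (2115 to 2726) in T11-Apobec, while in T cells it summed to 1690 and 1841 CPM. The cytosolic subunit gene Ncf1 stood at 369 against 108 CPM, Ncf4 at 926 against 391 CPM and the GTPase gene Rac2 at 1807 against 675 CPM. Without cells over 3000 UMIs the list's median log2 ratio was 0.87 in place of 1.19, below the 2-fold line. Treated libraries had 4182 CPM in T11-Apobec and 3982 in KPB25Luv.

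Of 21 tested cytokine and pattern receptor genes, 9 were at least 2-fold higher in KPB25Luv and 0 lower. Csf3r is among them and was used by the rule, which leaves 8 of 20. Without cells over 3000 UMIs the list's median log2 ratio was 0.66 in place of 0.94, both below the 2-fold line. Cd14, a co-receptor for bacterial lipopolysaccharide, was in 362 of 425 KPB25Luv and 45 of 80 T11-Apobec cells, at 5320 against 802 CPM, a log2 ratio of 2.72 (2.41 to 3.06). Il1r2, a decoy receptor for interleukin-1, stood at 1031 against 391 CPM. Clec4n, which encodes the fungal receptor dectin-2, stood at 1867 against 127 CPM, a log2 ratio of 3.82 (3.10 to 4.79). Xbp1, a transcription factor of the unfolded protein response, stood at 1021 against 58.7 CPM, and Bcl2a1b, of a survival gene family with near-identical copies, at 586 against 39.1 CPM. Tgfb1, a suppressive cytokine gene, stood at 296 against 48.9 CPM. Arg1, which encodes the arginine-consuming enzyme arginase 1, had 97 UMIs against 0, but its log2 ratio turned to -0.56 without the large cells. Gdpd3, a phospholipase gene, led the 10 highest genes, at 1253 against 19.6 CPM, with 1905 CPM in treated KPB25Luv and 0 UMIs in treated T11-Apobec cells. Its level in T cells differed in the same direction, at 176 and 311 CPM in untreated and treated KPB25Luv and 10.6 and 5.73 CPM in untreated and treated T11-Apobec. Gsr, which encodes glutathione reductase, stood at 1065 against 97.8 CPM in neutrophils and also differed in T cells, at 228 against 45.6 CPM.

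Genes higher in untreated T11-Apobec neutrophils included Ccl4, at 2553 against 168 CPM, and Acod1, which makes the metabolite itaconate, at 274 against 41 CPM. The calprotectin pair was used by the rule, so its levels are a description only, with S100a9 at 51883 against 23747 CPM. The type I interferon list was lower in KPB25Luv, with 8 of 11 tested genes at least 2-fold lower and 3 higher and sums of 2815 against 5115 CPM. Isg15 stood at 248 against 636 CPM. The interferon-gamma list went the other way, with 9 of 15 tested genes at least 2-fold higher in KPB25Luv and 0 lower, and sums of 4979 against 3980 CPM. S100a4, Col1a2 and Sparc were also low in KPB25Luv. They are mesenchymal or invasion-linked genes whose untreated T11-Apobec UMIs lay to 54.5%, 48.8% and 39.3% in 1 cell. Their log2 ratios were -4.82, -5.79 and -4.17, and -3.19, -3.25 and -2.58 without cells over 3000 UMIs. Each stood lower in untreated T11-Apobec neutrophils than over all cells of that library. In T cells S100a4, Col1a2 and Sparc stood at 1816, 198 and 365 CPM in untreated T11-Apobec and 237, 8.95 and 168 in untreated KPB25Luv. The part of free RNA in these 3 genes was not tested.

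Siglecf encodes a sialic acid-binding receptor known from eosinophils and from neutrophils of some tumours. It lies at chr7:43351341-43359531 (plus strand, GRCm38). It had 125 UMIs in 102 of 425 untreated KPB25Luv neutrophils, 24% of cells (20 to 28.4%), or 12.5% (9.48 to 16%) after thinning. The other 3 libraries had 0 UMIs. For the share of cells with a UMI, not of cells expressing the gene, 3 counts would be 13.6% of the cells in each treated library and 3.75% in untreated T11-Apobec, and the exact intervals reach 15.4% and 4.51%. The untreated KPB25Luv level of 214 CPM (178 to 255) was at least 7.28-fold above untreated T11-Apobec. Against the 22 treated KPB25Luv cells it was at least 1.65-fold higher, a bound under 2-fold, so a difference of 2-fold was not detectable at this depth. After thinning, 0.194% of T cells in untreated KPB25Luv held a Siglecf UMI. The other 8 eosinophil markers, including Epx and Prg2, had 10 UMIs in all in these neutrophils, 6 of Ccr3 and 4 of Ear2, and Epx and Prg2 had 0. Cells with a Siglecf UMI held Retnlg in 7.84%, against 27.2% of the other neutrophils. After thinning these shares were 3.77% against 18.5%. Cxcr2 was alike in both, at 89.2% and 90.4%. Retnlg and Cxcr2 are both rule genes, and a neutrophil without Retnlg had to hold Cxcr2 or Csf3r. Their shares are thus tied by the rule and are a description only.

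Neutrophils also differed from one another within a library. The cells of each untreated library were ranked by the sum of 20 genes of circulating neutrophils, among them Retnlg, S100a8 and S100a9, after thinning to 500 UMIs, split by rank into 3 groups of equal size, and the low group and the high group were set side by side. Genes of the sum are a description, and cells of 1 library are not replicates. In untreated T11-Apobec, 26 cells in each, Retnlg was in 38.5% of the low and 100% of the high group. The low group carried more of the 30 genes of a list linked to tumour-infiltrating neutrophils, 101462 against 40615 CPM, a log2 difference of 1.32 (1.17 to 1.47). Over all 80 cells the rank correlation of this list's sum with the circulating sum was -0.22. Among 189 genes tested outside the sum, 75 were at least 2-fold higher in the low group, a share of 39.7%, and the median gene was 0.56 higher on the log2 scale. Cstb, a protease inhibitor gene, had 34 UMIs in the low and 1 in the high group, Ccl3 78 and 7, and Ccl4 101 and 11. Fth1, the iron-storing ferritin heavy chain, had 715 and 176. The high group had more Wfdc17, with 103 UMIs against 26, and more of the haptoglobin gene Hp, with 44 against 9. Macrophage markers had 15 UMIs in the low and 4 in the high group, and their part in these differences was not tested. Only 13 cells reached 1000 UMIs, and among 4 cells in each at that depth the log2 difference of the tumour-infiltrating list turned to -2.64.

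In untreated KPB25Luv, 141 cells in each, the tumour-infiltrating list was nearly level, at 54085 CPM in the low and 51574 in the high group, a log2 difference of 0.07 (0.00 to 0.13). Of 1009 genes tested outside the sum, 144 were at least 2-fold higher in the low group, a share of 14.3%. The median gene was 0.31 higher there on the log2 scale, so the list moved less than the median gene. Siglecf had 26 UMIs in the low and 7 in the high group, a log2 difference of 1.82 (0.65 to 3.34). Clec4n had 208 and 84, and Scimp, an adaptor of antigen-presenting cells, 58 and 12. The high group had more Ccl6, with 297 UMIs against 50, more Wfdc17, with 373 against 68, and more of the formyl peptide receptor gene Fpr1, with 19 against 1. The cytokine gene Osm had 68 against 15 and Lyz2 130 against 44. Secondary granule genes outside the sum were higher in the high group of both models, at 6154 against 1462 CPM in T11-Apobec and 5177 against 2156 CPM in KPB25Luv. Retnlg was uneven even among the KPB25Luv cells that had it: 10 of 425 cells held 60.2% of its 1609 UMIs, and 1 cell held 309.

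**Figure D5:**
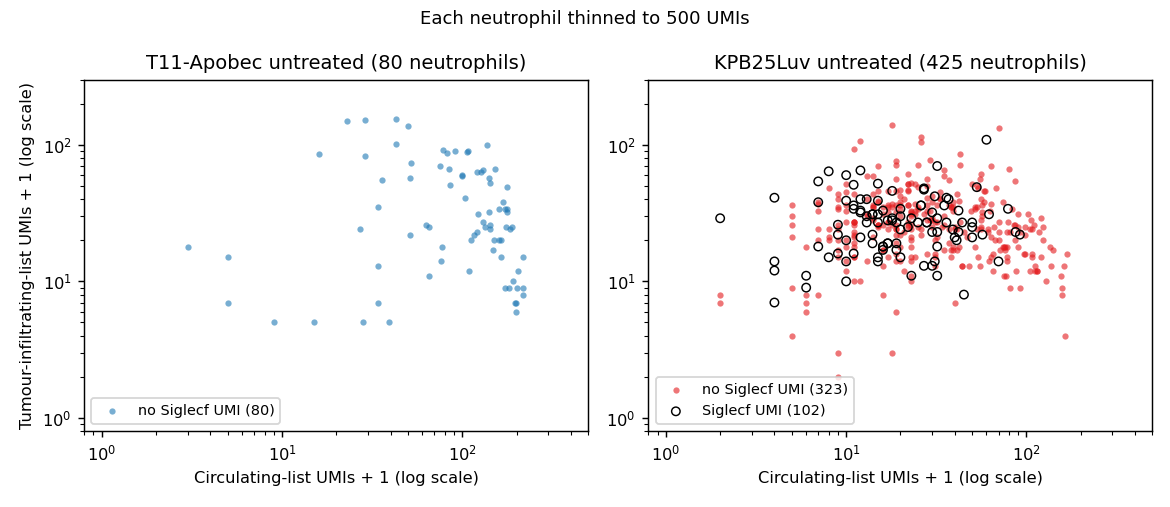
Each neutrophil of the 2 untreated libraries by its UMIs of the circulating list (horizontal) and of the tumour-infiltrating list (vertical), both plus 1 on log scales, after thinning to 500 UMIs, with open circles for the 102 KPB25Luv cells with a Siglecf UMI before thinning. The T11-Apobec cells with the highest circulating sums have low tumour-infiltrating sums, while the KPB25Luv cells form 1 cloud at lower circulating sums.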

How the data were processed

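Single-cell 3' RNA libraries, 4 in all, were deposited as UMI counts per gene and cell barcode. These were raw counts made with Cell Ranger 3.0.2 per the file headers, on mm10 per the submitters' processing notes. Further steps of the authors are not given in the sources used here. Kept cells, the neutrophil rule and the UMI totals stand in the report. Counts were summed over the neutrophils of each library and scaled to 1000000 UMIs (CPM). Ratios used an added count of 0.5 and carry exact conditional 95% intervals, shares Clopper-Pearson and CPM exact Poisson intervals. A count of 0 was read as up to 3 counts. Genes called 2-fold had at least 20 UMIs in both libraries together. With 1 library per group there was no test.

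The neutrophils and the 23 gene lists were chosen with earlier results of these data known. Named genes were the 10 highest and 10 lowest per comparison by the interval end nearest 0 (a UMI in at least 5% and at least 5 of the cells, CPM at least 0.5 times that over all cells), list members with the most UMIs or the largest ratios, the rule genes, PD1 ligands, markers of other types and the 20 most enriched genes. Gsr, Igfbp6 and others named for their level in T cells, and list members such as Arg1 and Hilpda, were singled out after their values were seen. 3 list genes are not analysed here, and some results are not reported here. Macrophages, T cells and immune cells were set by raw UMI rules. Doublets were kept, and an alternative removed those that Scrublet in scanpy 1.11.5 scored highest, at 0.8% per 1000 barcodes. Alternatives changed filters, scaling, depth, cell rules and denominators. The code ran under Python 3.11.15 with scipy 1.17.1 for intervals, pandas 2.3.3 and numpy 2.4.6 for tables and matplotlib 3.10.9 for figures, and the ratio code was checked on simulated data.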

Additional observations from a re-analysis of the deposited data

Results flagged for a closer look

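For 6 genes the neutrophils of the treated library stood on opposite sides of the untreated library in the 2 models. The difference between the models was not tested, since each group is 1 library. Ccl4 had a log2 ratio of treated over untreated of -2.43 in T11-Apobec and 4.32 in KPB25Luv, and Ccl3 of -2.52 and 1.92. Without cells over 3000 UMIs these were -4.39 and 4.12 for Ccl4 and -2.91 and 1.74 for Ccl3, so both genes kept their directions. Cebpb stood at 1.4 and -2.03, and at 0.76 and -2.11 without those cells. Gngt2 stood at 2.68 and -2.0, and at 0.54 and -2.13 without them. Lyz2 stood at 2.5 and -1.9, and Gpx1 at 1.07 and -1.84. Without the large cells Lyz2 was at -0.44 in T11-Apobec and -1.33 in KPB25Luv, and Gpx1 at -0.48 and -1.85, so the opposite directions of these 2 genes rested on the large T11-Apobec cells.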

How the results depend on the processing

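No paired analysis was possible because each group is 1 library with no replicate. The cause of the moves below was not tested. Log2 ratios of the neutrophil share stood at -2.31 (T11-Apobec, treated over untreated) and 2.10 (KPB25Luv over T11-Apobec, untreated) among immune cells, and at -4.64, -6.23 (KPB25Luv, treated over untreated) and 0.87 per T cell. With at least 500 genes per cell the KPB25Luv value was -5.86, on 4 treated cells, and that between the models 5.23, on 12 T11-Apobec cells. Thinned to 500 UMIs the latter was 2.63. Per macrophage, a denominator chosen after seeing the data, the treatment ratios turned to 0.30 and 1.56.

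Genes past 2-fold numbered 246 (T11-Apobec), 1533 (KPB25Luv) and 1256 (between models). They numbered 95, 632 and 533 with at least 50 UMIs, 3394, 7116 and 4495 without a filter, 72, 716 and 596 after thinning, and 136, 835 and 769 without genes under the level of all cells. In T11-Apobec they numbered 144 with at least 3 lineage UMIs, 156 with at least 10 calprotectin UMIs and 111 without cells over 3000 UMIs. With 5 UMIs expected they numbered 200 in KPB25Luv and 766 between models, and with genes at 0 at their bound 746 in KPB25Luv. These last 3 settings were chosen after seeing the data. Centring on the median moved the share of called genes that were higher from 33.7% to 53.7% in KPB25Luv and from 73.4% to 57.1% between models, where equal weight per cell gave 83.7%.

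Among named genes, H2-Aa in T11-Apobec turned to -0.15 with at least 10 calprotectin UMIs and Lyz2 to -0.44 without the large cells. Over the alternatives the interferon-gamma median ranged from 2.17 to 3.91 in KPB25Luv and 1.37 to 3.23 in T11-Apobec. The MHC class I median ranged from 1.98 to 2.58 and 1.27 to 2.24. Each of these lowest values came with at least 10 calprotectin UMIs per cell. Thinned to 1000 UMIs, the tumour-infiltrating difference between the lowest and the highest cells by circulating sum was -2.64 in T11-Apobec and -0.17 in KPB25Luv. With 22 neutrophils in each treated library, genes under about 130 CPM in KPB25Luv and 91.6 CPM in T11-Apobec could not be told from 0.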
